A study of Rattus norvegicus with 47 samples.

Results

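The genes described here encode the synaptic vesicle release machinery, measured by RNA sequencing in striatum and cerebellum of adolescent Sprague-Dawley rats. Members were chosen by name: the numbered synaptotagmin (Syt), syntaxin (Stx), syntaxin-binding (Stxbp), VAMP, complexin (Cplx) and RIM (Rims) genes, Snap23, Snap25, Snap29, Snap47 and Snap91, the synapsins Syn1 to Syn3, the SV2 glycoproteins, Unc13a to Unc13c and Rab3a to Rab3d. Of the 15319 genes listed, 70 carried such a name, and 66 of these reached a mean of at least 1 CPM (a count scaled by the library total to 1e+06) in either region. Below that level were Stx19 (0.84 CPM in striatum and 0.45 in cerebellum), Syt8 (0.56 and 0.15), Syt15 (0.50 and 0.41) and Cplx4 (0.02 and 0.00). The members nearest above it were Stx11 (1.10 and 1.11 CPM) and Vamp5 (3.25 and 3.71 CPM). Cplx3 and Syt10 passed only through striatum. All 66 members passed the filter on low counts in striatum and 64 did in cerebellum, where Syt10 and Cplx3 did not.

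The study asked how inhaled PCB52, a tetrachlorinated biphenyl, alters gene expression in the young brain. Rats inhaled PCB52 through a nose-only system for 4 h daily over 28 days, at an air flow of 12 L/min over coated glass beads, or were sham-exposed. They had been assigned at random to a group at 39 days of age (males) or 42 days (females). Tissue punches of striatum came from 4 sham males, 6 sham females, 6 PCB52 males and 6 PCB52 females, and punches of cerebellum from 5 sham males, 6 sham females, 5 PCB52 males and 6 PCB52 females. All animals were of 1 strain, and 21 animals gave libraries of both regions, 10 of them sham and 11 exposed.

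Fusion of a synaptic vesicle with the plasma membrane is driven by a complex of SNARE proteins: a VAMP on the vesicle, and a syntaxin and a SNAP25 family protein on the target membrane. Munc18 proteins (the Stxbp genes) hold and guide syntaxin, Munc13 proteins (Unc13 genes) and RIM proteins prime vesicles at the active zone, complexins clamp and activate the assembled complex, and synaptotagmins are the calcium sensors that trigger release. Rab3 proteins, synapsins and SV2 glycoproteins sit on the vesicle and act in docking, clustering and priming, while AP180 (Snap91) acts in the retrieval of vesicle membrane. Most striatal neurons are inhibitory projection neurons receiving excitatory input from cortex and thalamus and dopamine from the midbrain, whereas the cerebellum is dominated by excitatory granule cells. The messenger RNA of cortical, thalamic and midbrain terminals is largely made in cell bodies outside the punch.

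Library totals ranged from 5684508 to 8914523 counts in striatum and from 6524400 to 15865054 in cerebellum. The region labels held in every library: Drd1, a receptor of striatal projection neurons, was at 202 CPM or more in striatum and at 9.70 CPM or less in cerebellum, and Gabra6, a receptor subunit of granule cells, was at 861 CPM or more in cerebellum. Striatum PCB52 female 22 held 67.9 CPM of Gabra6, beside at most 1.89 CPM in the other striatal libraries. Its mean log2 CPM of granule cell markers was 5.49, beside 1.76 to 3.29 in the others. The mean log2 CPM of 13 striatal projection neuron markers was lowest in striatum PCB52 female 24 (8.85) and female 14 (8.99). It was 9.61 to 10.05 in the other striatal libraries, and the part of this in the comparisons of females was not tested. Both Xist and the Y-linked Eif2s3y exceeded 3 CPM in 5 sham libraries (cerebellum females 8 and 10, cerebellum males 9 and 11, and striatum male 3), so these held transcripts typical of both sexes. The males among them held 135 to 314 CPM of Xist, which is expressed from the inactive X chromosome of females, and the females 4.20 and 32.9 CPM of Eif2s3y. Whether RNA of different animals was mixed was not tested, and the sex of these 5 is as labelled; without them 0 members were called in any PCB52 or sex comparison. In striatum the lists of other tissues searched were cortical neurons, thalamic, septal or hypothalamic neurons, olfactory bulb and choroid plexus. In cerebellum they were striatal projection neurons, cortical neurons and choroid plexus. Granule cell markers were not searched in striatum, where PCB52 female 22 was high in them. A searched list exceeded its median in the same region by over 2 log2 units in 4 libraries. These were striatum PCB52 female 14 (cortical neurons), striatum sham female 12 (olfactory bulb), and striatum PCB52 female 20 and cerebellum sham male 1 (choroid plexus). Calls in sham animals that were lost without these libraries are named with the genes. In such bulk samples, fewer cells of a type and less RNA per cell cannot be told apart. Each region was deposited as its own table, so that region and any batch of handling or sequencing cannot be told apart either.

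The sequences before the start sites of the members with the largest regional differences are shown first, since these members were chosen for the size of that difference. RefSeq promoter windows (assembly GRCr8) were matched for 51 of the 66 members. The 3 members with a window that were highest in cerebellum relative to striatum were Rims3 (chr5:139714070-139714319, plus strand), Syt2 (chr13:48736872-48737121, plus strand) and Vamp1 (chr4:159698644-159698893, plus strand). The 3 that were highest in striatum were Cplx3 (chr8:66906201-66906450, minus strand), Syt6 (chr2:193781226-193781475, plus strand) and Rab3b (chr5:128858841-128859090, plus strand). Each sequence holds the 250 bases before the start site, 5′ to 3′, and capitals mark matches to the letters described after them.
Rims3: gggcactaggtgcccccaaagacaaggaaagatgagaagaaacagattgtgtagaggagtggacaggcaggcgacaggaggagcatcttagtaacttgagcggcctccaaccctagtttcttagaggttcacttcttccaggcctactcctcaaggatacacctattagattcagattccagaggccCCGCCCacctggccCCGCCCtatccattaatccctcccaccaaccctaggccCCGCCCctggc
Syt2: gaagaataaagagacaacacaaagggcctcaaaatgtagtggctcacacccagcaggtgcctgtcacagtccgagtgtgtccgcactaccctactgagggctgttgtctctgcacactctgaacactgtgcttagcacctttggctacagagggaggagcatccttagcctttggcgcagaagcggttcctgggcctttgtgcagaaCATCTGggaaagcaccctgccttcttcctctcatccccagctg
Vamp1: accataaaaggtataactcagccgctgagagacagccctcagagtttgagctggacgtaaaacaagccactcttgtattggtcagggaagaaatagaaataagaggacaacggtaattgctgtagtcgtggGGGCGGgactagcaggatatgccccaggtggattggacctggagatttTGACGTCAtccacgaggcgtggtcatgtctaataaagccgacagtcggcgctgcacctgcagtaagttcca
Cplx3: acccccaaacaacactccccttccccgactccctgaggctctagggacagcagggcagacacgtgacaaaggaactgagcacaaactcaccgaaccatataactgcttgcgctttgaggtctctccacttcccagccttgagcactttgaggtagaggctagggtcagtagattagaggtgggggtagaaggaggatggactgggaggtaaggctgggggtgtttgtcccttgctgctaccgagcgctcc
Syt6: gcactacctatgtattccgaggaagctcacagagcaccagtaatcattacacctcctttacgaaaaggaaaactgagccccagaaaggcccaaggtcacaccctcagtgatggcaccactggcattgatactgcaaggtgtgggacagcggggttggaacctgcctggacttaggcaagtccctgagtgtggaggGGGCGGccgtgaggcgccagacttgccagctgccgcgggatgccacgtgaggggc
Rab3b: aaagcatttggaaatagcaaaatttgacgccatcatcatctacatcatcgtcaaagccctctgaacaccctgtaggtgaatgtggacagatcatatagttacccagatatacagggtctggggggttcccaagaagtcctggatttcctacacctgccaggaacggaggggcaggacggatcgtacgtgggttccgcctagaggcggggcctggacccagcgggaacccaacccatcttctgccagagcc
The letters searched, on both strands, were TGACGTCA (the cAMP response element), CAGATG (an E-box bound by NEUROD factors), GCGGGGGCG (bound by EGR factors) and GGGCGG (the GC box), and neighbouring matches may overlap. TGACGTCA stood in the Vamp1 window and in that of Syn1, and in 2.61% of the 12198 windows of genes in the files. CAGATG, written CATCTG on the other strand, stood in the Syt2 window, in 4 of the 51 member windows and in 10.5% of all windows. GCGGGGGCG stood in 7 of 51 member windows (Rab3d, Stxbp5, Syn1, Syn2, Syt1, Vamp2 and Vamp4) against 4.01% of all windows. GGGCGG stood in 33 of 51 member windows (64.7%) against 51.8% of all windows, and the median GC content was 61.6% in member windows and 58.4% in all. By direction, GGGCGG was found in 9 of 14 windows of members higher in striatum, 13 of 21 of those higher in cerebellum and 11 of 16 of those not called. These matches describe letters in these windows only.

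The first comparison set striatum against cerebellum in the sham animals, in 1 fit over all 44 libraries. Of the 66 members, 49 passed an adjusted p of 0.05 in edgeR's quasi-likelihood test, 20 of them higher in striatum and 29 higher in cerebellum. The share called among all 12446 genes tested was 69.8%, with 34.3% higher in striatum and 35.5% higher in cerebellum. Regional differences were therefore common among all genes, and the members' count is close to that background. The median log2 fold change, written throughout as striatum over cerebellum, was -0.13 over the members and -0.03 over all genes. The values of the 10 striatal and 11 cerebellar sham libraries did not overlap for 27 members, 11 higher in striatum and 16 higher in cerebellum, against 30.8% of all genes tested. Syt10 and Cplx3 are among these 11 and among the 20 called higher in striatum. They reached the level threshold of members through striatum only, so the rule favoured that direction, here and in the PCB52 animals. Among members, 40 of 66 differed in the same direction in all 10 sham animals with both regions, against 52% of all genes.

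**Figure D1:**
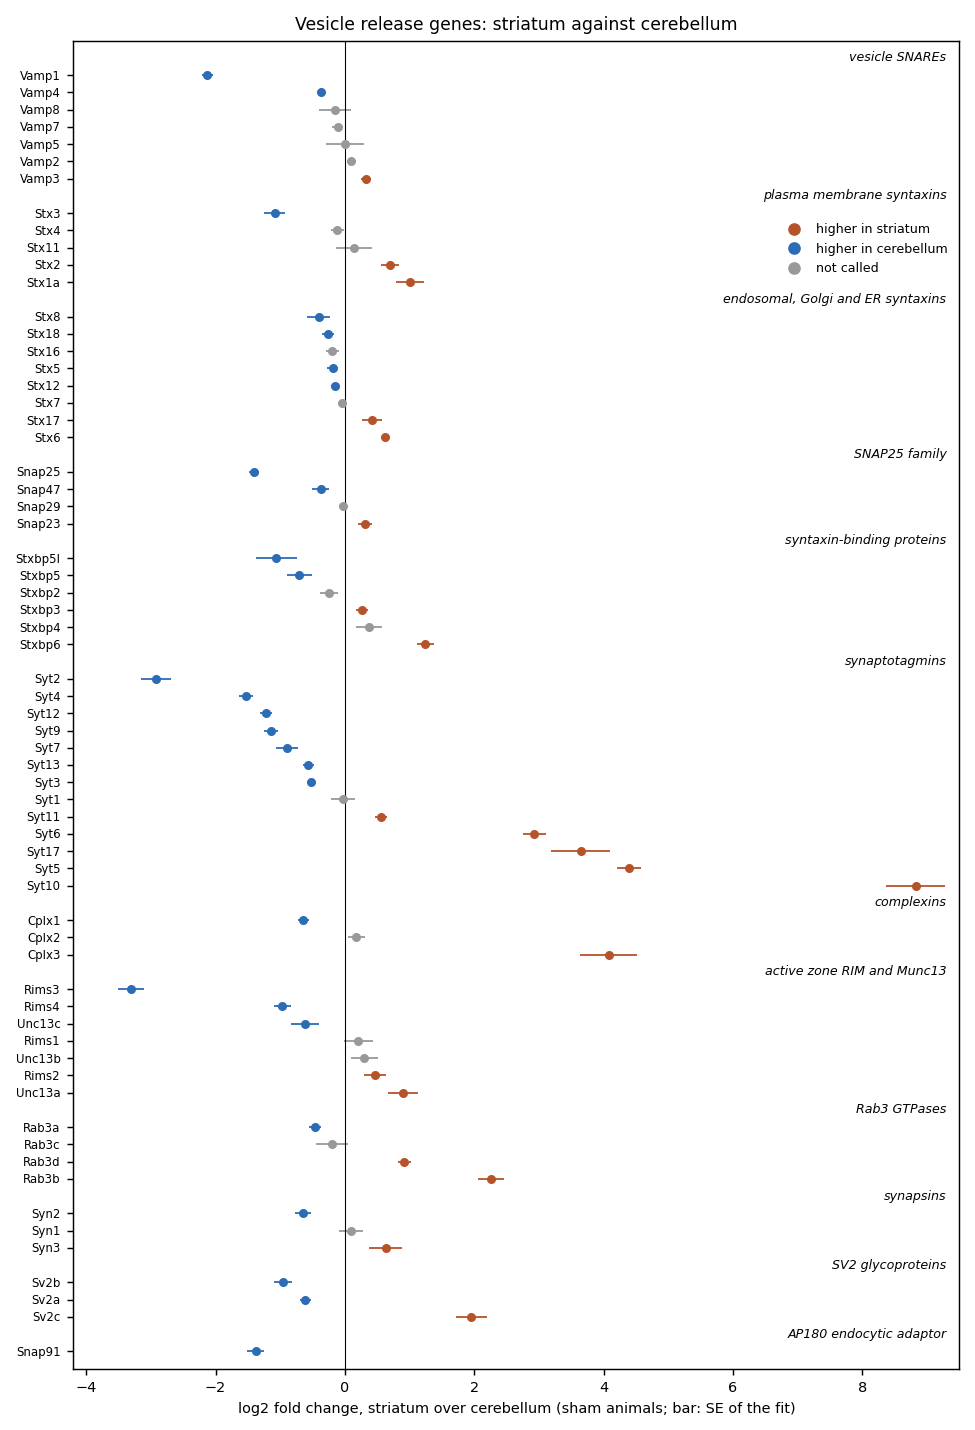
Log2 fold change of striatum over cerebellum in sham animals (x axis) for 64 of the 66 members, grouped by role; bars are the standard error of the fit and colours give the call at an adjusted p of 0.05. Rims3, Syt2 and Vamp1 lie farthest on the cerebellar side and Syt10, Syt5 and Cplx3 farthest on the striatal side; the position of Syt10 depends on the fit's prior count because its cerebellar counts sum to 1.

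Among the vesicle SNAREs the split lay between the paralogs Vamp1 and Vamp2, which are the synaptic VAMPs of different neuron types. Vamp1 ranged from 173 to 266 CPM in sham striatum (median 192, n = 10) and from 815 to 1079 CPM in sham cerebellum (median 851, n = 11). No striatal library reached the cerebellar range, and the difference was 4.38-fold (log2 fold change -2.13, SE 0.09, adjusted p = 4.99e-24 by edgeR). Vamp2, the major VAMP of forebrain synapses, had medians of 651 CPM in striatum (579 to 730) and 613 CPM in cerebellum (536 to 663), with overlapping groups and no call (log2 fold change 0.10, SE 0.07). Vamp3, which acts in recycling endosomes, was higher in striatum (log2 fold change 0.32, SE 0.07) and Vamp4, of the trans-Golgi network, was higher in cerebellum (-0.37, SE 0.06). Vamp5, Vamp7 and Vamp8 were not called, with log2 fold changes of 0.00, -0.11 and -0.16.

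The target-membrane SNAREs also divided by paralog. Snap25, the neuronal SNAP25 family member, ranged from 719 to 1073 CPM in sham striatum (median 879) and from 1955 to 2630 CPM in sham cerebellum (median 2294). The groups were separated by a wide gap, and Snap25 was 2.65-fold higher in cerebellum (log2 fold change -1.41, SE 0.07, adjusted p = 2.47e-20 by edgeR). Snap47 was also higher in cerebellum (-0.37, SE 0.13), the broadly expressed Snap23 was higher in striatum (0.31, SE 0.11), and Snap29 was not called (-0.04, SE 0.06). The calls of Snap23 and Snap47 were lost without the 5 libraries that held both Xist and Eif2s3y.

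Stx1a, a plasma membrane SNARE of synapses, ranged from 36.3 to 102 CPM in sham striatum (median 46.3) and from 16.9 to 32.0 CPM in sham cerebellum (median 26.3). These groups did not overlap, and Stx1a was 2.02-fold higher in striatum (log2 fold change 1.01, SE 0.22, adjusted p = 7.44e-05 by edgeR). Among further plasma membrane syntaxins, Stx2 was higher in striatum (0.70, SE 0.14), Stx3, the syntaxin of ribbon synapses and dendritic exocytosis, was higher in cerebellum (-1.08, SE 0.16), and Stx4 and Stx11 were not called.

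The syntaxins of endosomes, Golgi and endoplasmic reticulum differed less. Stx6, of the trans-Golgi network and endosomes, was higher in striatum (log2 fold change 0.62, SE 0.05) with groups that did not overlap, as was Stx17, the autophagosome syntaxin (0.42, SE 0.16), whose groups overlapped and whose call was lost without striatum sham male 1. Stx5, Stx8, Stx12 and Stx18 were called higher in cerebellum with log2 fold changes from -0.40 (Stx8) to -0.15 (Stx12). With the animal as a replicate block, none of these 4 passed in edgeR: the adjusted p was 0.0766 for Stx5, 0.0711 for Stx8, 0.0819 for Stx12 and 0.0566 for Stx18. The same 4 calls were lost without the 5 libraries that held Xist and Eif2s3y. Stx7 and Stx16 were not called.

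The tomosyn genes Stxbp5 and Stxbp5l, whose proteins inhibit SNARE assembly, were called higher in cerebellum (-0.70, SE 0.20 and -1.06, SE 0.32). Both tomosyn calls were lost when all libraries that stood apart were left out. Stxbp6, which encodes the SNARE-binding protein amisyn, had the opposite direction, with medians of 14 CPM in striatum (11.4 to 17.6) and 6.49 CPM in cerebellum (4.52 to 7.41) and a log2 fold change of 1.24 (SE 0.13). Stxbp3 was higher in striatum (0.27, SE 0.09), a call lost without the 5 libraries that held Xist and Eif2s3y, and Stxbp2 and Stxbp4 were not called, although Stxbp2 passed as higher in cerebellum with the replicate block (log2 fold change -0.27, adjusted p = 0.0482 by edgeR).

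Of the 13 synaptotagmins, 12 were called, 5 higher in striatum and 7 higher in cerebellum, against 69.8% of all genes called, and 11 had groups that did not overlap, against 30.8% of all genes. Syt10, which became a member through striatum only, is among the 12 and the 11. Among the fast calcium sensors of release, Syt1 did not separate the regions, with medians of 200 CPM in striatum (156 to 294) and 218 CPM in cerebellum (131 to 309). Its log2 fold change was -0.03 (SE 0.19). Syt2, the fast sensor typical of hindbrain synapses, ranged from 16.4 to 46.8 CPM in striatum (median 38.7) and from 179 to 413 CPM in cerebellum (median 274). Syt2 was thus 7.59-fold higher in cerebellum, with no overlap (log2 fold change -2.92, SE 0.23, adjusted p = 1.25e-14 by edgeR).

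Syt5, a calcium-binding synaptotagmin, showed the reverse pattern: 194 to 348 CPM in sham striatum (median 250.5) and 9.25 to 19.7 CPM in sham cerebellum (median 11.6). The lowest striatal library lay far above the highest cerebellar one, a 21-fold difference (log2 fold change 4.39, SE 0.18, adjusted p = 8.25e-24 by edgeR). Syt6 ranged from 26.0 to 53.3 CPM in striatum (median 39.7) and from 1.62 to 7.0 CPM in cerebellum (median 5.85), with a log2 fold change of 2.93 (SE 0.17). Syt17, a synaptotagmin without a transmembrane domain, was at 7.02 to 24.8 CPM in striatum (median 11.7) and at 0.13 to 2.15 CPM in cerebellum (median 0.79), with a log2 fold change of 3.65 (SE 0.45). All 3 separated the regions completely in sham animals.

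Syt10, a calcium sensor known for controlling secretion of a growth factor in olfactory bulb neurons, was present in striatum and near absent from cerebellum. Its counts summed to 884 over the 10 sham striatal libraries, from 40 to 147 per library, and to 1 over the 11 sham cerebellar libraries, 10 of which were at 0. The ratio of the depth-scaled sums was 1030, with an exact 95% interval of 184 to 40725 that covers counting error only. Because Syt10 became a member through striatum only, this ratio describes its levels and is no test of the direction. In PCB52 animals the sums were 868 in 12 striatal libraries and 5 in 11 cerebellar libraries, a ratio of 223 with an interval of 95 to 687.

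On the cerebellar side, Syt4, an unconventional synaptotagmin of dense-core and postsynaptic vesicles, had medians of 163 CPM in striatum (132 to 252) and 493.2 CPM in cerebellum (414 to 571). Its groups did not overlap (log2 fold change -1.53, SE 0.11, adjusted p = 3.69e-16 by edgeR). Syt12 (-1.22, SE 0.09), Syt9 (-1.15, SE 0.11), and Syt7, the slow high-affinity sensor of asynchronous release (-0.89, SE 0.17), were also higher in cerebellum without overlap. Syt13 and Syt3 followed with -0.57 and -0.53. Syt11 was the remaining member higher in striatum (0.56, SE 0.09).

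Each complexin behaved differently. Cplx1 ranged from 566 to 752 CPM in sham striatum (median 668) and from 700.3 to 1189 CPM in sham cerebellum (median 1057). The groups overlapped through cerebellum sham male 1, the lowest cerebellar library and the one high in choroid plexus genes, yet Cplx1 was higher in cerebellum in all 10 paired animals (log2 fold change -0.64, SE 0.09, adjusted p = 1.63e-08 by edgeR). Cplx2 was not called (0.18, SE 0.13). Cplx3, the complexin of ribbon synapses and of deep cortical neurons, was at 2.21 to 9.69 CPM in striatum (median 4.05) and at 0 to 0.54 CPM in cerebellum (median 0.26). Its counts summed to 336 in striatum and 20 in cerebellum, a depth-scaled ratio of 19.6 (exact 95% interval 12.5 to 32.5, counting error only). Cplx3 too became a member through striatum only, so this ratio is no test of the direction.

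At the active zone, Rims3, which encodes a short RIM isoform, showed the largest cerebellar excess of any member. It ranged from 4.73 to 11.4 CPM in sham striatum (median 6.96) and from 58.2 to 90.9 CPM in sham cerebellum (median 69.5). The ranges lay far apart, and the difference was 9.90-fold (log2 fold change -3.31, SE 0.20, adjusted p = 4.35e-18 by edgeR). Rims4, the other short RIM, had the same direction (-0.97, SE 0.13), the full-length Rims2 the opposite (0.47, SE 0.17), and the full-length Rims1 was not called (0.20, SE 0.22). Of the Munc13 genes, Unc13a had medians of 204 CPM in striatum (105 to 259) and 105 CPM in cerebellum (52 to 183) and was higher in striatum in all 10 paired animals, with overlapping groups (log2 fold change 0.90, SE 0.23, adjusted p = 7.83e-04 by edgeR). Unc13c, the granule cell paralog, was called higher in cerebellum (-0.61, SE 0.22), a call lost without the 4 libraries high in genes of another tissue, and Unc13b was not called (0.30, SE 0.21).

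On the vesicle surface, Rab3b, a Rab3 paralog found in dopamine neurons and secretory cells, ranged from 37.7 to 125 CPM in sham striatum (median 50.2) and from 8.87 to 18.2 CPM in sham cerebellum (median 10.2). The 125 CPM was that of striatum sham female 12, in which all 6 measured olfactory bulb markers lay above the median of the other striatal libraries and summed to 433 CPM against at most 178 CPM elsewhere in striatum; the part of this in the result was not tested. Rab3b was higher in striatum without overlap (log2 fold change 2.26, SE 0.20, adjusted p = 4.09e-13 by edgeR), and without any single library the log2 fold change stayed between 2.10 and 2.36. Rab3d was also higher in striatum (0.92, SE 0.10), Rab3a, the major Rab3 of synaptic vesicles, was higher in cerebellum (-0.46, SE 0.10), and Rab3c was not called (-0.19, SE 0.25).

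Sv2c, the SV2 paralog of basal ganglia neurons, ranged from 18.02 to 65.1 CPM in sham striatum (median 48.8) and from 8.31 to 17.2 CPM in sham cerebellum (median 12.0). The lowest striatal value lay just above the highest cerebellar one, and Sv2c was 3.87-fold higher in striatum (log2 fold change 1.95, SE 0.24, adjusted p = 2.07e-09 by edgeR). Sv2a, the broadly expressed paralog, had medians of 276 CPM in striatum (235 to 307.6) and 427 CPM in cerebellum (348 to 463), and Sv2a (-0.61, SE 0.09) and Sv2b (-0.95, SE 0.14) were higher in cerebellum without overlap. Of the synapsins, Syn2 was higher in cerebellum (-0.65, SE 0.12), Syn3 higher in striatum (0.63, SE 0.25) and Syn1 not called (0.09, SE 0.19). The call of Syn3 was lost without striatum sham male 11, and also without the 5 libraries that held Xist and Eif2s3y. Snap91, which encodes AP180, had medians of 175 CPM in striatum (142 to 217) and 446 CPM in cerebellum (356 to 535) and was higher in cerebellum without overlap (log2 fold change -1.38, SE 0.13).

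**Figure D2:**
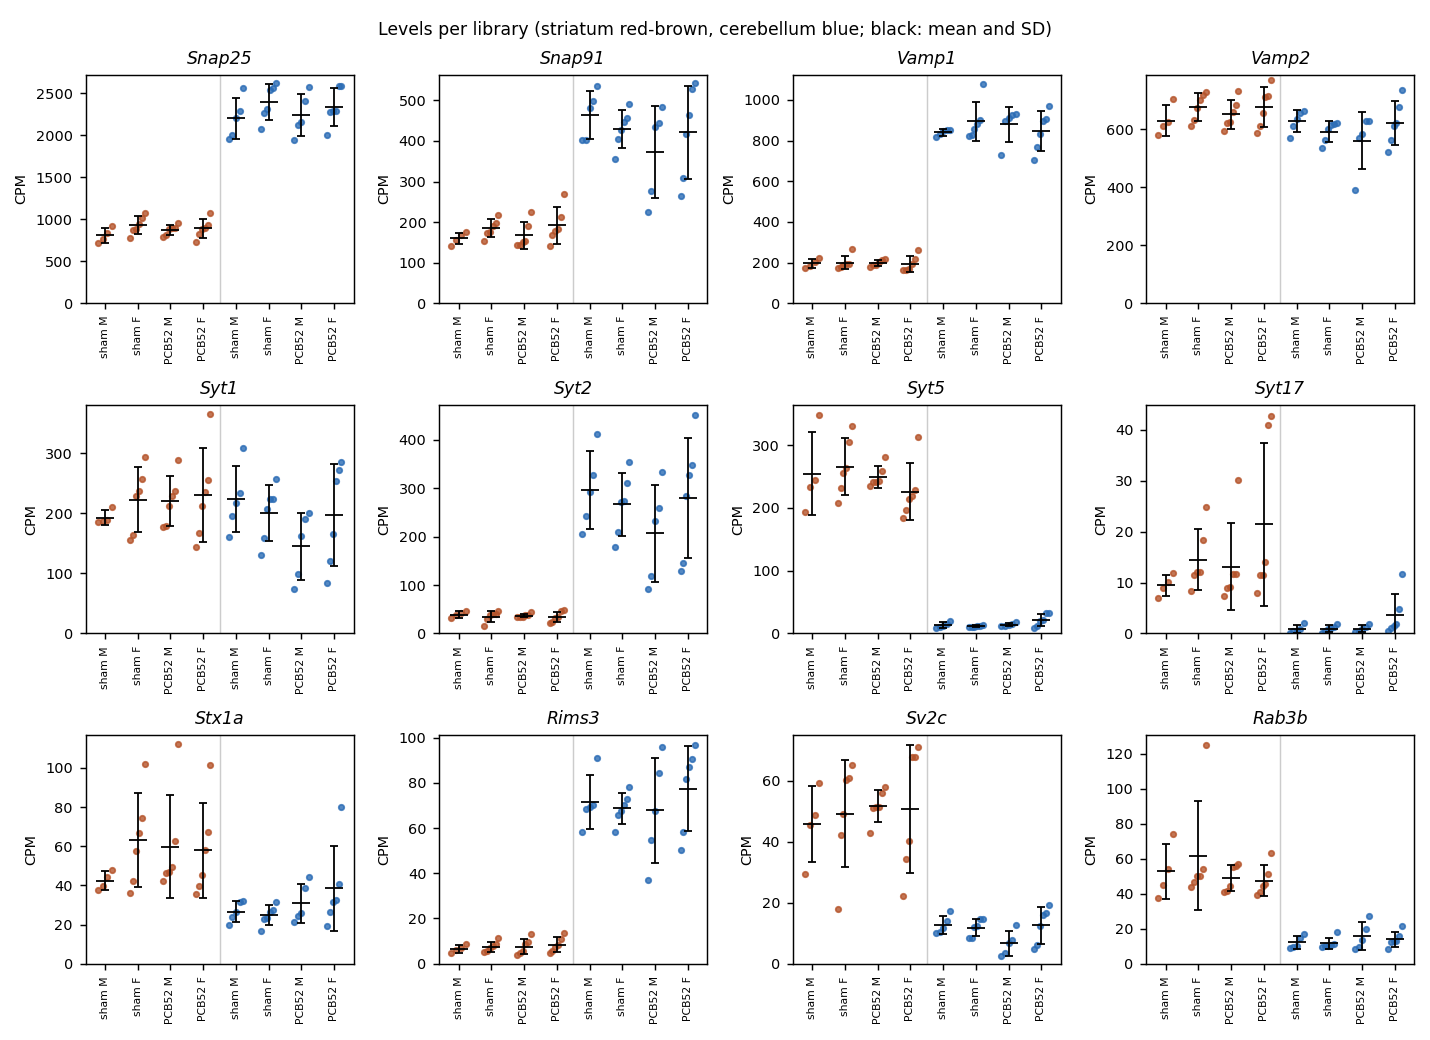
CPM of 12 members in each library (points), by region, treatment and sex (x axis; M male, F female), with the group mean and SD in black and y axes from 0. Snap25, Snap91, Vamp1, Syt2 and Rims3 lie higher in every sham cerebellar library, Syt5, Syt17, Stx1a, Sv2c and Rab3b in every sham striatal library, and Vamp2 and Syt1 overlap.

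Ratios between paralogs within a library do not depend on library size, and paralog pairs were described in this way with no test. In sham animals the ratio of Rims1 to Rims3 was 11.2-fold higher in striatum, that of Syt1 to Syt2 7.71-fold, that of Sv2c to Sv2a 5.65-fold, and that of Unc13a to Unc13c 2.95-fold. The ratio of Vamp1 to Vamp2 was 4.76-fold higher in cerebellum. For each of these pairs the library ratios of the regions did not overlap in sham animals. Syn1 to Syn2 was 1.66-fold higher in striatum without overlap, while Cplx1 to Cplx2 (1.75-fold higher in cerebellum), Sv2a to Sv2b (1.25-fold higher in striatum) and Rab3a to Rab3c (1.20-fold higher in cerebellum) overlapped. In PCB52 animals the ratio of Syn1 to Syn2 overlapped, and that of Cplx1 to Cplx2 did not.

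The PCB52 animals are different rats, and the same regional comparison was repeated in them. In edgeR's test 56 of 66 members were called, 28 higher in each region, against 76.9% of all genes, 36.5% higher in striatum and 40.4% higher in cerebellum. The groups did not overlap for 23 members, against 31.1% of all genes. Between both comparisons, 46 members had the same call and 0 had opposite calls. Agreement was not counted over all genes, of which 69.8% were called in sham and 76.9% in PCB52 animals. The 46 therefore have no background beside them and describe these members only. Syt5 was again higher in striatum (log2 fold change 3.78, SE 0.17), as were Syt6 (2.94, SE 0.17), Sv2c (2.47, SE 0.24) and Rab3b (1.72, SE 0.19). Rims3 (-3.18, SE 0.18), Syt2 (-2.76, SE 0.21), Vamp1 (-2.13, SE 0.08), and Snap25 (-1.38, SE 0.07) were again higher in cerebellum. Syn1, Syt1, Vamp2, Cplx2, Rims1, Snap29, Stxbp4 and Unc13b, not called in sham animals, were called higher in striatum in PCB52 animals, with log2 fold changes from 0.16 (Snap29) to 0.80 (Unc13b), and Stx4 (-0.36) and Vamp8 (-0.57) were called higher in cerebellum. Stxbp5, Stxbp5l and Unc13c, called in sham animals, were not called in PCB52 animals. Without the libraries high in ribosomal protein genes, described further on, 52 members were called in PCB52 animals. Of these, 23 were higher in striatum and 29 higher in cerebellum. Among all genes, 9213 of 12496 were called in that fit, beside 9575 of 12446 in the main fit. Of the 56 member calls 48 were kept, and Stx16, Stxbp5, Stxbp5l and Unc13c were gained. Those of Syn1, Syt1, Vamp2, Cplx2, Rims1, Stx4, Stx5 and Vamp8 were lost.

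**Figure D3:**
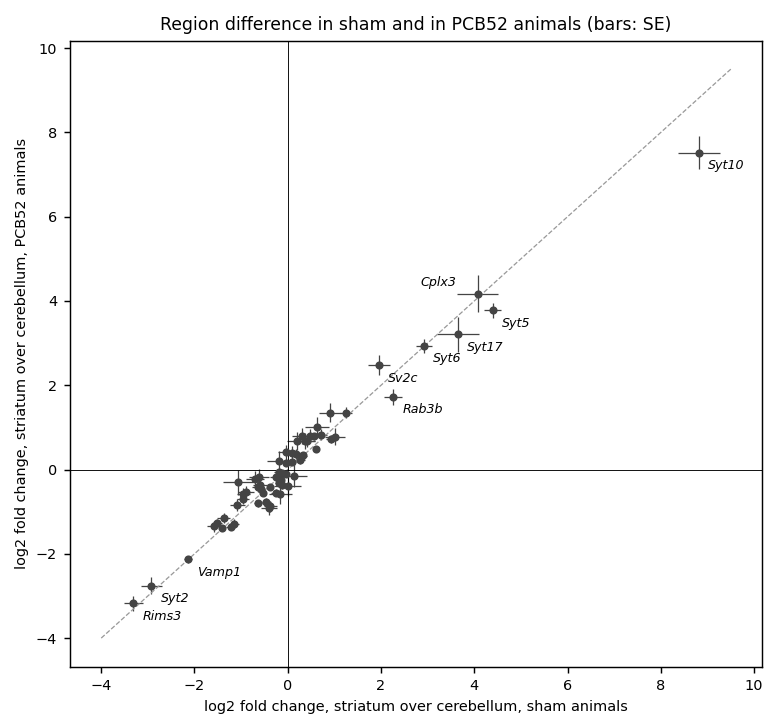
Log2 fold change of striatum over cerebellum in sham animals (x axis) and in PCB52 animals (y axis) for each of the 66 members; bars are the standard error and the dashed line marks equal values. Vamp1 (-2.13 in each) and Syt6 (2.93 and 2.94) lie near the line, while Syt10 (8.82 and 7.52), Syt5 (4.39 and 3.78) and Rab3b (2.26 and 1.72) lie below it and Sv2c (1.95 and 2.47) above it.

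Of 47 other genes of the presynaptic terminal, 45 were tested. In sham animals 11 were called higher in striatum and 20 higher in cerebellum, against 34.3% and 35.5% of all genes, and in PCB52 animals 14 and 20 were, against 36.5% and 40.4%. The totals called are near the background. By direction, the share higher in striatum lay below that of all genes, and the share higher in cerebellum above it, in both treatments. This lean was not tested. The largest striatal differences were those of the vesicular acetylcholine transporter Slc18a3 (log2 fold change 7.37, SE 0.36), the vesicle protein gene Synpr (5.49, SE 0.17) and Rimbp2, whose protein binds RIM (3.23, SE 0.19). The largest cerebellar ones were those of the vesicular glutamate transporter Slc17a7 (-4.63, SE 0.63), the endophilin gene Sh3gl2 (-2.80, SE 0.11) and the glutamate transporter Slc17a6 (-2.13, SE 0.77). Slc18a3 had a mean of 0.10 CPM in sham cerebellum, so its position depends on the fit's prior count. Slc17a6 had means of 2.51 CPM in sham striatum and 7.45 CPM in sham cerebellum. Its groups overlapped, and 2 of 10 paired sham animals were higher in striatum. The median of the 45 genes in sham animals was -0.26, beside -0.03 over all genes.

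The question of the study was whether PCB52 changed expression. No member passed an adjusted p of 0.05 in any comparison of PCB52 with sham in edgeR, limma or DESeq2. In edgeR the share of all genes called was 0% in each: in striatum and in cerebellum, for males, for females, for the mean of both sexes and for the difference between the sexes, and for the difference between the regions' responses. In striatum, 1 of 66 members had an unadjusted p under 0.05 in males, 5 in females, 3 in the mean of both sexes and 0 in the difference between the sexes. In cerebellum the counts were 5 of 64 in males, 4 in females, 7 in the mean of both sexes and 2 in the difference between the sexes. For the difference between the regions the count was 6 of 66. Among all genes, those with an unadjusted p under 0.05 numbered 109 and 1632 of 12142 for striatal males and females, and 1673 and 369 of 11690 for cerebellar males and females. For the mean of both sexes they numbered 704 of 12142 in striatum and 1727 of 11690 in cerebellum. For the difference between the sexes they numbered 471 and 254, and for the difference between the regions 2279 of 12446.

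In striatum the differences were small. In males, all 66 members lay within 0.5 log2 units of 0, with a median log2 fold change (PCB52 over sham) of 0.05, beside 0.00 over all genes. In females, 63 of 66 did, with a median of 0.01. The median absolute log2 fold change was 0.07 over members and 0.07 over all genes in males, and 0.10 and 0.15 in females. The smallest p in males was that of Rims4: sham males were at 11.6, 17, 19.3 and 20.3 CPM, and the 6 PCB52 males ranged from 17.7 to 26.5 CPM (median 21.3). These values overlapped (log2 fold change 0.36, SE 0.17, adjusted p = 1 by edgeR). Without sham male 9 the Rims4 log2 fold change was 0.22. Stx1a (0.50, SE 0.42) and Sv2b (0.20) followed, at 0.22 and 0.11 without PCB52 male 19, and the Stx1a values of PCB52 males ran from 42.3 to 62.6 CPM but for 112 CPM in male 19.

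In striatal females the smallest p was that of Stxbp2, which encodes Munc18-2, the Munc18 of secretory and immune cells. Sham females ranged from 6.30 to 15.6 CPM (median 8.64) and PCB52 females from 10.7 to 17.4 CPM (median 14.2). The groups overlapped, and the difference was not called (log2 fold change 0.56, SE 0.21, adjusted p = 0.313 by edgeR). Unc13a ranged from 105 to 220 CPM in sham females (median 204) and from 179 to 312 CPM in PCB52 females (median 259), also with overlap (0.45, SE 0.18, adjusted p = 0.335 by edgeR). Rab3a ranged from 377 to 555 CPM in sham females (median 437) and from 327 to 410 CPM in PCB52 females (median 383), with an adjusted p of 0.326 by edgeR (-0.26, SE 0.10). Without the libraries high in a searched list of another tissue, the log2 fold changes of Unc13a and Rab3a were 0.21 and -0.15. PCB52 female 22, high in granule cell markers, stayed in that fit. As the mean of both sexes, Stxbp2, Unc13a and Rims4 had the smallest p, with an adjusted p of 0.774 each by edgeR.

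In cerebellum the differences were larger in males than in females. The median absolute log2 fold change was 0.29 over members and 0.26 over all genes in males, and 0.10 and 0.10 in females. In males, 49 of 64 members lay within 0.5 log2 units of 0, with a median log2 fold change of -0.14, beside 0.01 over all genes; in females 61 of 64 did, with a median of 0.03. Sv2c had the smallest p in males: sham males were at 10.1, 10.5, 11.8, 14.1 and 17.2 CPM and PCB52 males at 2.65, 3.39, 6.85, 7.72 and 12.6 CPM. Only the highest PCB52 male reached the sham range (log2 fold change -0.94, SE 0.39, adjusted p = 0.313 by edgeR). The lowest 2, males 15 and 23, were high in the ribosomal protein genes described further on, and without such libraries the log2 fold change was -0.51. In females the Sv2c groups overlapped widely, at 8.31 to 14.7 CPM in sham and 4.70 to 19.4 CPM in PCB52 animals, and the female minus male difference was 1.02 (SE 0.40, adjusted p = 0.774 by edgeR).

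Syt5 had the smallest p in cerebellar females. Sham females ranged from 10.04 to 13.7 CPM (median 11.5) and PCB52 females from 8.80 to 33.3 CPM (median 20.98), with 4 PCB52 females above every sham female and 2 within or below their range (log2 fold change 0.86, SE 0.26, adjusted p = 1 by edgeR). Stxbp2 ranged from 9.78 to 13.6 CPM in sham females and from 11.9 to 17.7 CPM in PCB52 females (0.39, SE 0.14, adjusted p = 1 by edgeR). As the mean of both sexes it had the smallest p of any member in cerebellum (0.31, SE 0.10, adjusted p = 0.326 by edgeR), followed by Snap29 (-0.16, SE 0.06) and Syt4 (-0.27, SE 0.11), which was at -0.08 without the libraries high in ribosomal protein genes.

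Syt17 gave the largest log2 fold change in cerebellar females (1.83, SE 0.67, adjusted p = 1 by edgeR), and this rested on 2 libraries; it ranged from 1.04 to 2.15 when single libraries were left out. PCB52 female 24 was at 11.6 CPM and PCB52 female 18 at 4.73 CPM, while the other 4 lay between 0.56 and 1.83 CPM and the sham females between 0.14 and 1.95 CPM. The 9 cortical markers summed to 1446 CPM in female 24 and 1511 CPM in female 18, beside a median of 1440 CPM in the other cerebellar libraries, which also express Slc17a7 of this list in granule cells. As a mean log2 CPM the list stood highest in female 24 (4.67) and female 18 (4.18), beside at most 3.92 in the other cerebellar libraries. In females 24 and 18, 6 and 7 of the 9 lay above the median, and 0 were at 0. The part of these markers in the result was not tested.

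In striatum, Syt17 was high in the 3 libraries with the highest cortical markers, and Cplx3 and Stx1a in 2 of them. PCB52 male 19, female 14 and female 24 held 654, 609 and 587 CPM of the 9 cortical markers, beside a median of 254 CPM; 8, 8 and 5 of the 9 lay above the median, and 0 were at 0 in male 19 and female 14. Summed over the list, sham males ranged from 204 to 254 CPM, sham females from 195 to 529, PCB52 males from 241 to 654 and PCB52 females from 187 to 609. Syt17 was at 30.2, 41.0 and 42.8 CPM in these 3 libraries and at 7.31 to 13.99 CPM in the other PCB52 libraries of striatum, and sham female 12 held 24.8 CPM of it with 529 CPM of cortical markers. Cplx3 was at 8.94 and 11.2 CPM in PCB52 male 19 and female 14, 2.61 CPM in female 24 and at most 7.28 CPM in the other PCB52 libraries. Stx1a was at 112 and 101 CPM in PCB52 male 19 and female 14, and at most 67.01 CPM in the other PCB52 libraries. The part of cortical markers in the levels of these genes was not tested.

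**Figure D4:**
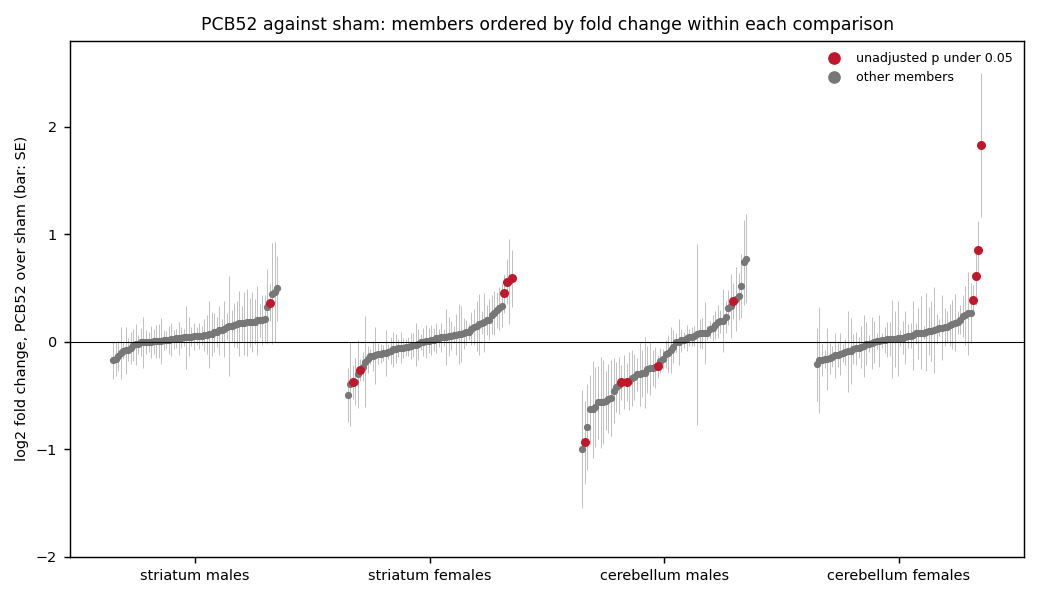
Log2 fold change of PCB52 over sham for the members tested in each region and sex, ordered by size within each comparison; bars are the standard error and red points have an unadjusted p under 0.05. No point passed the adjusted threshold, striatal males all lay within 0.5 of 0, and Syt17 in cerebellar females lay highest at 1.83.

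No regional difference of a member was called as changed by exposure. The PCB52 effect in striatum minus that in cerebellum had its smallest p for Syt5 (log2 difference -0.62, SE 0.22), Snap47 (-0.50, SE 0.18) and Snap29 (0.19, SE 0.08), each with an adjusted p of 0.268 by edgeR. Without the libraries high in ribosomal protein genes, among which Snap47 was high in cerebellum, the Snap47 difference was -0.12. Between females and males, 0 members were called in striatum, where 0.0494% of all genes were called, and 0 in cerebellum, where 0.0257% were. At an unadjusted p under 0.05 these comparisons held 2 and 0 members by edgeR, and DESeq2 and limma also called 0 members. Stx3 had the smallest p between the sexes in striatum (0.36 higher in females, SE 0.15, adjusted p = 1 by edgeR).

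The members' share of all counts was 0.732% to 0.99% in striatum and 0.861% to 1.44% in cerebellum. In cerebellum the share was lower in libraries with high levels of 14 cytosolic ribosomal protein genes. In 4 PCB52 libraries (males 15 and 23, females 16 and 20) the mean log2 CPM of these genes was 9.79 to 10.4, and the members took 0.861% to 1.05% of counts. In the other 18 cerebellar libraries, 7 of them PCB52, the ribosomal mean was 8.19 to 9.28 and the members took 1.16% to 1.44%. In striatum, sham female 12 had the highest ribosomal mean (9.71) and the lowest share.

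Within the cerebellar PCB52 animals, 34 of the 64 members tested did not overlap between these 4 libraries and the other 7, against 48.7% of all genes. Of these members 25 were lower and 9 higher in the 4, beside 2709 lower and 2980 higher of the 11690 genes tested. Rims1 was at 44.0 to 65.8 CPM in the 4 and at 102 to 199 CPM in the 7, Unc13a at 29.5 to 51.8 and 83.6 to 171 CPM, and Syn1 at 74.4 to 138 and 163 to 343 CPM. Rab3a went the other way, at 773 to 808 CPM in the 4 and 474 to 647 CPM in the 7, as did Snap47 (89.7 to 103 and 47.1 to 74.4 CPM) and Stx8 (60.1 to 86.9 and 24.2 to 40.2 CPM). Snap25 overlapped, at 1947 to 2292 and 2128 to 2589 CPM. The 11 sham cerebellar libraries held 70.6 to 206 CPM of Rims1 and 433 to 683 CPM of Rab3a. These sets of libraries were defined from the data. The total share is near the background, while the members' split by direction leaned to lower values and that of all genes did not. The part of this axis in the PCB52 comparisons was not tested beyond leaving the libraries out, which called 0 members in any of them.

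**Figure D5:**
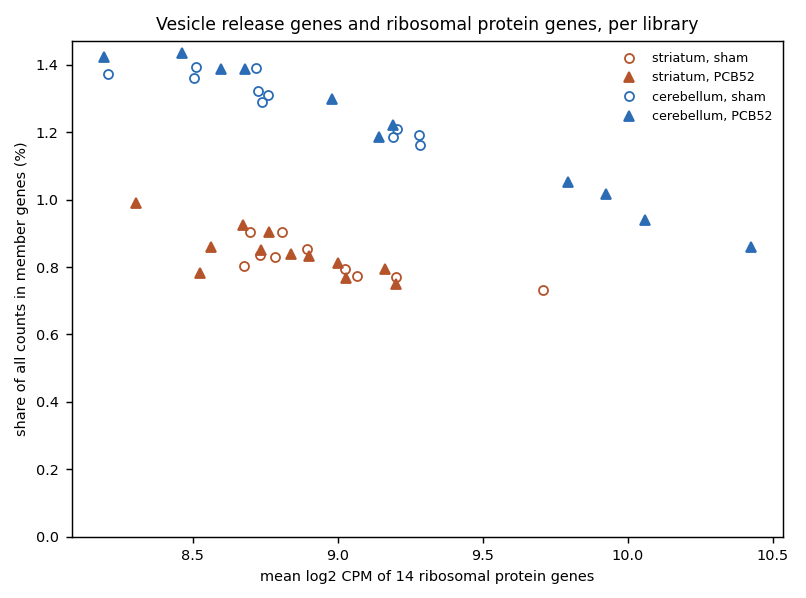
Share of all counts in the member genes (y axis, %) against the mean log2 CPM of 14 cytosolic ribosomal protein genes (x axis) in each of the 44 libraries. The 4 cerebellar PCB52 libraries with a ribosomal mean above 9.5 have the lowest shares of any cerebellar library, 0.861% to 1.05%.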

How the data were processed

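Polyadenylated or ribosomal-RNA-depleted RNA (the labels' protocols name both) from tissue punches was sequenced. Per the submitters' processing notes, FastQC, HISAT2 and the rat build rn6 were used, with no versions. The counting tool, annotation and strand setting were not stated in the labels or notes used here. The deposited tables, 1 per region, hold raw counts per gene and library, and of 47 labelled samples 44 had a column; the others were not analysed here. Gene identifiers were matched to symbols (15230, 99.4%) in a RefSeq table of GRCr8, used for names and promoter windows only. Members, gene lists and tests were chosen with earlier results of these data known.

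Counts were tested with edgeR 4.0.16 in R 4.3.3 (TMM, default low-count filter, robust quasi-likelihood F-test, two-sided, Benjamini-Hochberg over all genes tested, threshold 0.05). Regions were compared in 1 fit of 44 libraries with 8 group means, and PCB52 and sex within each region's 22 libraries with 4 group means, weighting sexes equally. CPM in the text are scaled by TMM-adjusted size unless the library total is named. List means average log2 CPM over genes, with a prior count of 2. Members were named by a rule: up to 3 called members per role and direction, the paralog pairs, and otherwise the 3 of lowest p. Further members are named from their values. Results for some genes are not reported by name here. The procedure was tested on simulated counts. Alternatives were DESeq2 1.42.0, limma 3.58.1 with voom and sample quality weights, other scalings, no filter, leaving out libraries, and the animal as a replicate block. The pairing comes from animal codes shared by the titles of both regions. Same-animal deviations from the group means correlated with a median of 0.09 (-0.38 to 0.49) over 21 animals, and 3 of 21 libraries correlated best with their own animal's. No 2 libraries of a group agreed within sampling noise (chi-square at least 3.25 per degree of freedom). Group sizes of 4 to 6 limit the precision. Intervals and ranges cover these animals only.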

Additional observations from a re-analysis of the deposited data

Results flagged for a closer look

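In groups of 4 to 6 libraries, 34 of 423 member and group combinations (53 genes) held a library that stood far from the others of its group by Dixon's criterion. Chance gives such a gap in about 1 in 20 groups. No cause was tested for any of them.

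In striatum, PCB52 male 19 stood apart for 6 genes. It was high for Cplx3 (8.94 CPM, others at most 4.28), Stx17 (11.3 CPM, others at most 9.62), Stx1a (112 CPM, others at most 62.6), Stxbp6 (16.6 CPM, others at most 12.5) and Syt17 (30.2 CPM, others at most 11.6). It was low for Stx4 (53.2 CPM, others at least 62.8). Sham female 12, the library high in olfactory bulb markers, was high for Rab3b (125 CPM, others at most 54.4), Stx5 (58.8 CPM, others at most 47.5) and Stx8 (48.4 CPM, others at most 29.2). It was low for Cplx2 (201 CPM, others at least 310) and Rims1 (70.8 CPM, others at least 154). Sham male 1 was high for Syt1 (211 CPM, others at most 188) and Stx11 (1.55 CPM, others at most 0.91), and low for Cplx1 (566 CPM, others at least 706). PCB52 female 14, high in cortical markers, held 514 CPM of Syn1 beside at most 237 CPM in the other PCB52 females.

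PCB52 female 18 was low for Rims2 (164 CPM) and high for Syt5 (314 CPM), and PCB52 male 21 was high for Rims2 (264 CPM). Sham female 8 was low for Rims4 (12.5 CPM) and high for Snap23 (23.2 CPM). Sham male 3 was high for Stx5 (47.7 CPM), within a group otherwise at 42.3 to 42.5 CPM, and sham female 4 was high for Vamp1 (266 CPM, others at most 195).

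In cerebellum, sham male 1, high in choroid plexus genes, was low for Cplx1 (700.3 CPM, others at least 1048) and Rab3d (10.7 CPM, others at least 15.2). Sham female 4 was low for Cplx1 (937 CPM), sham female 6 high for Rab3b (18.2 CPM) and sham female 12 high for Vamp1 (1079 CPM). PCB52 male 21 was low for Vamp1 (729.8 CPM, others at least 898), and PCB52 male 23, the library with the highest ribosomal list, was low for Vamp2 (391 CPM, others at least 571). PCB52 female 24 held 80.1 CPM of Stx1a beside at most 40.7 CPM in its group. The remaining gaps were among values near 0: Cplx3 at 0.50 CPM and Syt10 at 0.17 CPM in PCB52 male 23, Syt10 at 0.44 CPM in PCB52 female 24, and Syt10 at 0.14 CPM in sham male 9, which is a single count.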

How the results depend on the processing

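In sham animals 41 to 51 members were called over the alternatives beside leaving out single libraries, and 45 to 50 when 1 library was left out, beside 49 in the main test. The lowest count came without the 5 libraries that held Xist and Eif2s3y, which lost Snap23, Snap47, Stx5, Stx8, Stx12, Stx18, Stxbp3 and Syn3. In that fit 7944 of 12499 genes were called, beside 8690 of 12446 in the main test. In PCB52 animals the range of members called was 52 to 56 (52 to 57 with 1 library left out), beside 56. Over the alternatives beside leaving out single libraries, 7873 to 9662 genes were called in sham animals. In PCB52 animals 9119 to 10319 genes were, beside 9575 in the main test. The genes tested ranged from 12181 to 14970. With the animal as a replicate block, 46 members were called in sham and 54 in PCB52 animals. Of 12435 genes, 8432 and 9429 were called with the block. The block lost the sham calls of Stx5, Stx8, Stx12 and Stx18 and 2 calls in PCB52 animals, that of Vamp8 among them, gained Stxbp2 in sham animals, and changed no other call of a member between regions. Every PCB52 and sex comparison kept 0 called members under each alternative run. Of 48 members named between regions, 36 kept their call in every alternative, 12 lost or gained it in at least 1, and none that was called changed direction; Stx5 and Stx8 lost theirs in 31 and 26 of 56. The alternatives without striatum PCB52 female 22, without all libraries that stood apart and without the libraries high in ribosomal protein genes were chosen after seeing the data. Depth limits Syt10 and Cplx3 in cerebellum, where counts per library were at most 9.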
